A study of Mus musculus with 24 samples.

Results

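The genes described here are 9 members of the fibroblast growth factor (FGF) pathway in mouse embryonic stem cells: the ligand genes Fgf4, Fgf8 and Fgf15, and 6 genes that ERK signalling switches on, Spry2, Spry4, Dusp4, Dusp6, Etv4 and Etv5. They were picked by name as FGF ligands and ERK feedback genes, with earlier results of these data known. Counts of the 9 set beside shares of all genes are therefore descriptions. All 9 were found among the 19938 genes with a usable probe set on the arrays, through 10 probe sets. Each gene was read from the probe set annotated to its symbol alone, and Etv5, which had a pair of such sets, from the brighter of them. D3 cells, an established embryonic stem cell line, carried either the Prmt1 knockdown (siPRMT1) or a scrambled control sequence (siSCR). PRMT1 is the main enzyme that places asymmetric dimethyl marks on arginines. RNA was hybridised to 24 Affymetrix arrays, 3 for each of 8 groups. In each line the groups were undifferentiated cells, embryoid bodies on day 4, embryoid bodies with the vehicle DMSO for 12 h, and embryoid bodies with all-trans retinoic acid (ATRA, given in the labels as 5 micromol final concentration) for 12 h. Embryoid bodies are aggregates made without the cytokine LIF, and by the labels all cells had been kept off feeder cells beforehand. The labels call the 3 arrays of a group biological replicates without naming separate cultures, so p-values measure the spread between these arrays. Whether each line is a clone or a pool, and whether the 12 h of treatment followed day 4 or ended on it, the labels leave unsaid.

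FGF ligands bind FGF receptors with heparan sulfate and switch on the cascade from Ras to the kinase ERK. In mouse embryonic stem cells FGF4 is the main ligand that the cells make for themselves, and the ERK activity it drives readies them to leave the naive state. ERK in turn raises genes that hold it back or carry its output: Sprouty proteins (Spry2, Spry4) block the route to Ras, the phosphatases DUSP4 and DUSP6 remove the activating phosphates from ERK, and ETV4 and ETV5 are ETS transcription factors that act downstream of FGF. In the embryo, retinoic acid and FGF8 are known to oppose each other along the body axis.

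Values below are log2 expression values as the authors deposited them, or differences between them (log2 changes), given ± standard error from 1 limma fit over all 24 arrays (n = 3 in every group). Calls required a Benjamini-Hochberg adjusted p under 0.05 over all 19938 genes. Levels of different genes are not compared, since each probe set has its own brightness. Prmt1 itself was lower in siPRMT1 than in siSCR in all 4 states, by a log2 change between -0.63 (day 4) and -1.45 (ATRA). The depth of the knockdown was not constant. It was -1.37 in undifferentiated cells, a difference to day 4 of 0.74 ± 0.087 (adjusted p = 2.64e-06). With DMSO it was -1.11, and with ATRA it differed from that by -0.33 ± 0.087 (adjusted p = 0.0396). The siSCR arrays with DMSO or ATRA, 6 in all, formed a set of their own. Along the first principal component, which held 52.2% of the variance, they scored 50.1 to 61.2, against -26.8 to -9.44 for the 18, and the labels name no batch. Comparisons of those 6 with any of the 18 therefore cannot be told apart from whatever separates them, and this touches the knockdown with DMSO or ATRA and the vehicle step in siSCR. Replicates correlated at 0.990 to 0.999, and siSCR with ATRA had the widest spread, with a median SD over genes of 0.137, against 0.063 in siPRMT1 with DMSO. The mean over 12 core and naive pluripotency genes was 12.17 to 12.21 on the siPRMT1 arrays of undifferentiated cells and 12.00 to 12.05 on the siSCR ones. In bulk RNA, fewer cells that express a gene and less RNA of it per cell cannot be told apart.

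**Figure D1:**
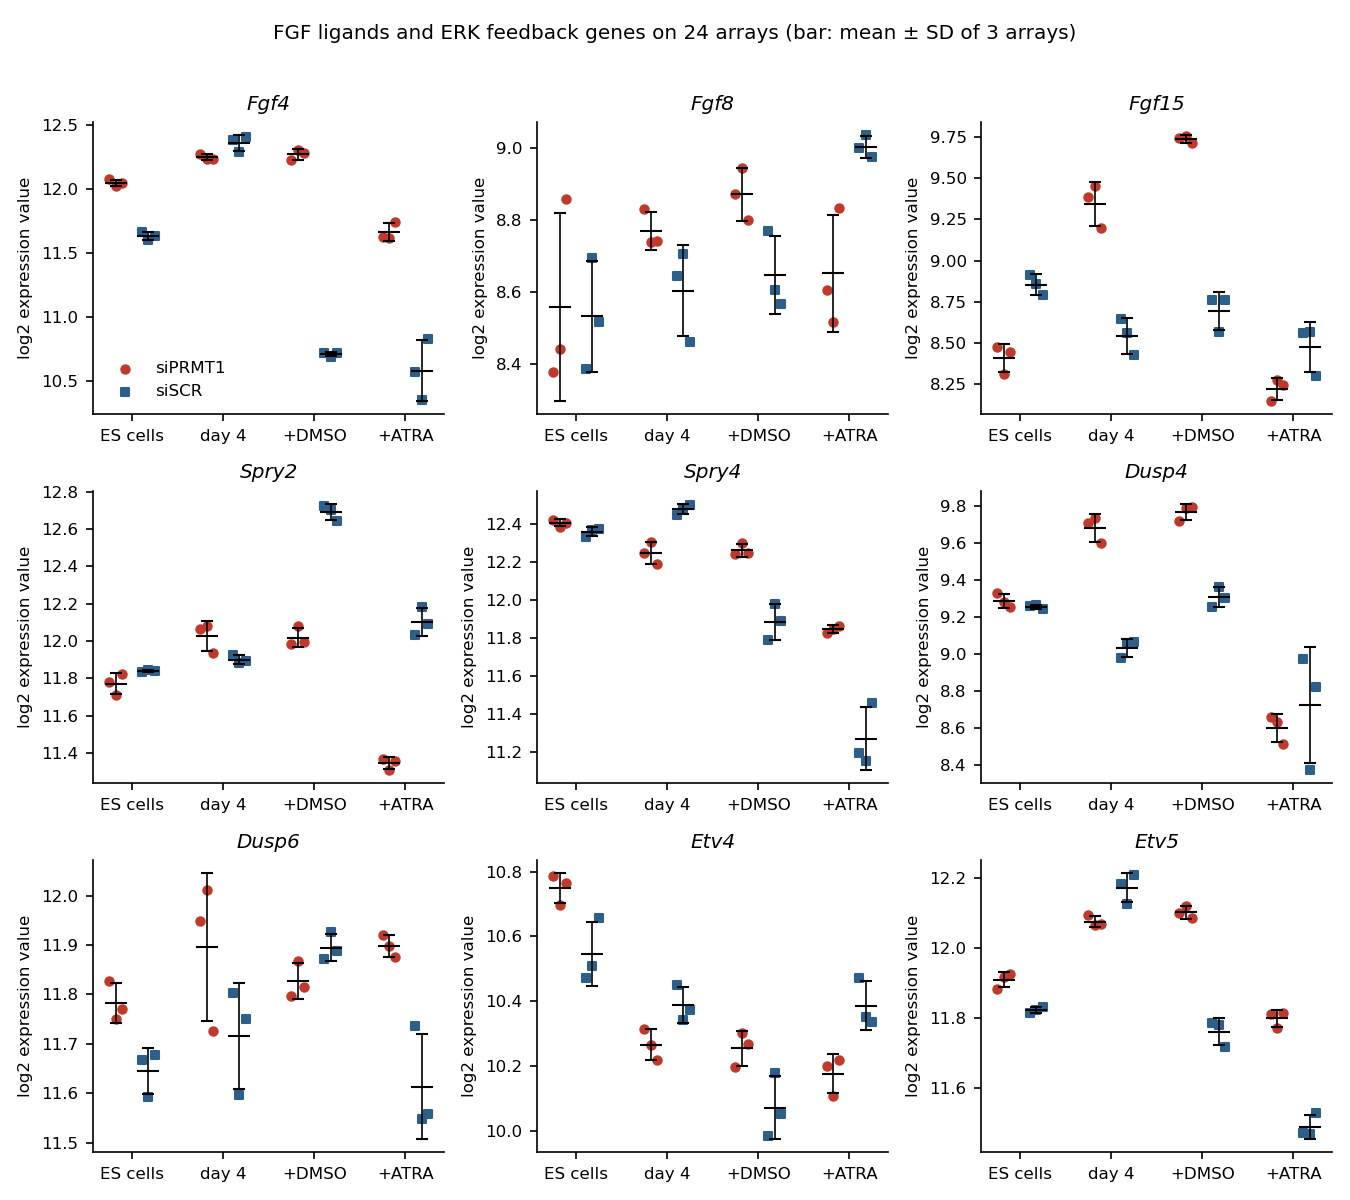
Log2 expression value (vertical axis) of each of the 9 genes on the 24 arrays, by state along the horizontal axis. Circles are siPRMT1 arrays, squares siSCR arrays, and black bars the mean ± SD of 3 arrays; Fgf4 is low on the 6 siSCR arrays with DMSO or ATRA (10.35 to 10.82), and Fgf15 is highest in siPRMT1 with DMSO (9.71 to 9.76).

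The ATRA comparison asked which genes responded to 12 h of retinoic acid relative to the vehicle, in each line. The FGF and ERK feedback genes were mostly lower with ATRA. In siPRMT1 embryoid bodies 6 of the 9 fell and 0 rose, where 12% of all genes were called, 6.05% higher and 5.94% lower. In siSCR embryoid bodies 5 fell and 2 rose, where 23.4% of all genes were called, 11.2% higher and 12.2% lower. Spry2, Spry4, Dusp4 and Etv5 fell in both lines, measured on separate arrays, and 3.38% of all genes were called lower in both, 3.21% higher in both. The median log2 change over the 9 was -0.42 in siPRMT1 and -0.27 in siSCR, beside medians of 0.025 and 0.028 over all genes.

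Among the ligands, Fgf15, the mouse counterpart of human FGF19, showed the largest ATRA change of the 9 genes in siPRMT1. With ATRA the siPRMT1 arrays gave 8.15, 8.27 and 8.25, and with DMSO 9.74, 9.76 and 9.71. All arrays with ATRA lay far below those with DMSO, a log2 change of -1.52 ± 0.082, or 2.86-fold lower (adjusted p = 2.97e-11). In siSCR the arrays with ATRA gave 8.56, 8.57 and 8.30 and those with DMSO 8.76, 8.56 and 8.76, which overlapped, and the change of -0.22 ± 0.082 was not called (adjusted p = 0.0597). The ATRA change of Fgf15 was more negative in siPRMT1 than in siSCR by -1.30 ± 0.12 (adjusted p = 1.17e-06).

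Fgf4 fell with ATRA in siPRMT1. Its values were 11.63, 11.61 and 11.74 with ATRA and 12.22, 12.30 and 12.28 with DMSO, a log2 change of -0.61 ± 0.077 (adjusted p = 7.74e-06). In siSCR the arrays gave 10.56, 10.35 and 10.82 with ATRA and 10.72, 10.69 and 10.72 with DMSO. Those groups overlapped, and the change was not called (-0.13, 95% interval -0.29 to 0.03). The difference between the lines was -0.48 ± 0.11 (adjusted p = 0.0185). Fgf8, the streak and midline ligand, went the other way in siSCR, where it rose by 0.36 ± 0.11 (adjusted p = 0.0223), with 9.00, 9.04 and 8.98 under ATRA against 8.77, 8.61 and 8.57 under DMSO. In siPRMT1 Fgf8 was not called (-0.22, interval -0.45 to 0.01), and its arrays overlapped. The difference between the lines for Fgf8 was -0.57 ± 0.15 (adjusted p = 0.0437).

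Both Sprouty genes fell with ATRA in each line. Spry2 read 11.37, 11.31 and 11.36 with ATRA in siPRMT1 and 11.98, 12.08 and 11.99 with DMSO, and 12.03, 12.18 and 12.09 with ATRA in siSCR against 12.72, 12.70 and 12.65 with DMSO. The arrays with ATRA lay below those with DMSO in each line, by -0.67 ± 0.052 in siPRMT1 (adjusted p = 7.62e-09) and -0.59 ± 0.052 in siSCR (adjusted p = 8.52e-08). The test of the difference between the lines was not called, with an interval of -0.24 to 0.07. Spry4 read 11.82, 11.85 and 11.86 with ATRA in siPRMT1 and 12.24, 12.30 and 12.24 with DMSO, and 11.20, 11.15 and 11.46 with ATRA in siSCR against 11.79, 11.98 and 11.89 with DMSO. It fell by 0.42 ± 0.065 in siPRMT1 (adjusted p = 9.69e-05) and by 0.61 ± 0.065 in siSCR (adjusted p = 8.58e-07), again with no overlap. The difference between the lines for Spry4 was 0.20 ± 0.092 (interval 0.0049 to 0.39) and was not called (adjusted p = 0.265).

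Of the phosphatase genes, Dusp4, whose product acts on ERK in the nucleus, fell most. Its siPRMT1 arrays gave 8.66, 8.63 and 8.51 with ATRA and 9.72, 9.79 and 9.80 with DMSO, a log2 change of -1.17 ± 0.096, or 2.25-fold lower (adjusted p = 1.81e-08). In siSCR they gave 8.97, 8.37 and 8.82 with ATRA and 9.25, 9.36 and 9.31 with DMSO, a change of -0.59 ± 0.096 (adjusted p = 0.000197). The siSCR arrays with ATRA scattered widely (SD 0.314), and the fall was larger in siPRMT1 by -0.58 ± 0.14 (adjusted p = 0.0214). Dusp6, the cytoplasmic ERK phosphatase, fell in siSCR by 0.28 ± 0.069 (adjusted p = 0.00625) and was not called in siPRMT1 (0.071, interval -0.08 to 0.22). The difference between the lines for Dusp6 was 0.35 ± 0.098 and missed the threshold (adjusted p = 0.0533).

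The ETS factor genes split. Etv5 fell in siPRMT1 by 0.30 ± 0.042 (adjusted p = 2.31e-05), with 11.81, 11.77 and 11.82 under ATRA and 12.10, 12.12 and 12.09 under DMSO. It fell in siSCR by 0.27 ± 0.042 (adjusted p = 8.89e-05), with 11.47, 11.47 and 11.53 under ATRA and 11.79, 11.78 and 11.72 under DMSO. Neither pair of groups overlapped. Etv4 was not called in siPRMT1 (-0.080, interval -0.21 to 0.05) and rose in siSCR by 0.31 ± 0.063 (adjusted p = 0.00122). Its siSCR arrays gave 10.47, 10.35 and 10.33 with ATRA and 9.98, 10.18 and 10.05 with DMSO. The response of Etv4 differed between the lines by -0.39 ± 0.089 (adjusted p = 0.0172).

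**Figure D2:**
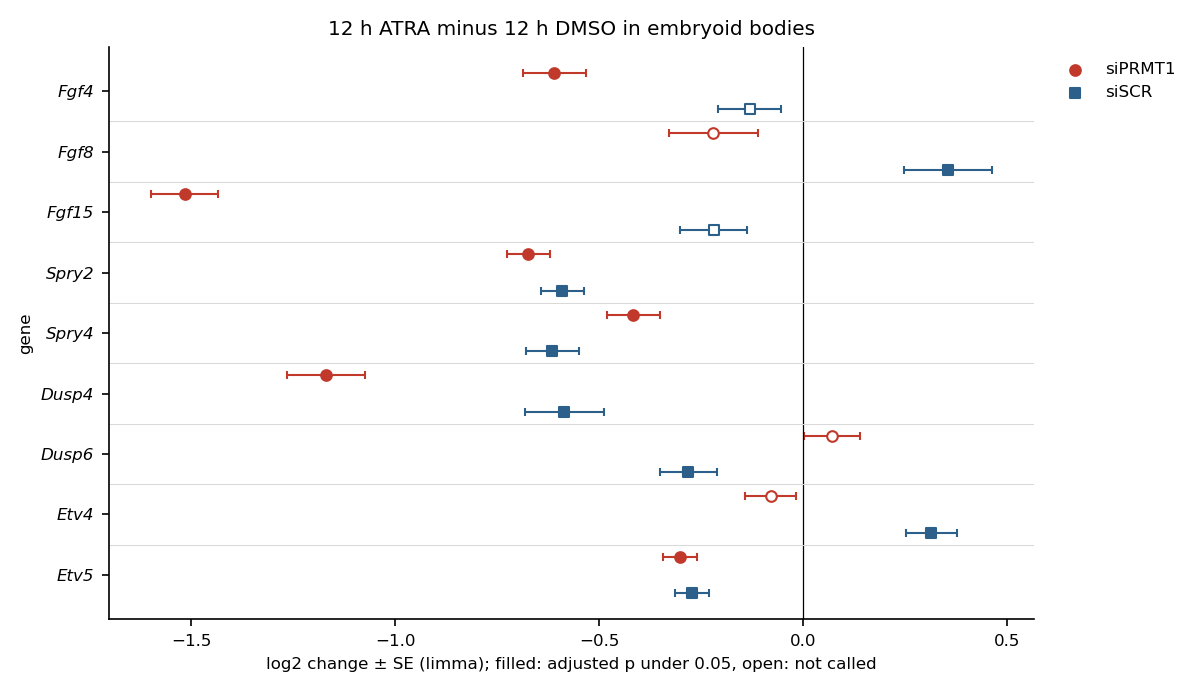
Log2 change ± SE (horizontal axis) of each gene between 12 h ATRA and 12 h DMSO, with siPRMT1 embryoid bodies as circles above and siSCR as squares below. Filled symbols were called at an adjusted p under 0.05; Fgf15 (-1.52 in siPRMT1, -0.22 in siSCR) shows the widest gap between the lines.

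The wider pathway did not move as a block with ATRA. Of 19 further genes of ERK feedback and output, 3 rose and 5 fell in siPRMT1, and 4 rose and 5 fell in siSCR. Dusp9, another ERK phosphatase, rose by 1.23 ± 0.067 in siPRMT1 and 1.54 ± 0.067 in siSCR, and Dusp5, a nuclear ERK phosphatase, by 0.73 ± 0.061 and 0.43 ± 0.061, opposite to Dusp4. Of 19 other FGF ligands, 1 rose and 5 fell in siPRMT1, and 3 rose and 3 fell in siSCR, with Fgf17, a close relative of Fgf8, lower in both lines (-0.46 ± 0.096 in siPRMT1 and -0.57 ± 0.096 in siSCR). Among 17 receptor and co-receptor genes, 3 rose and 3 fell in siPRMT1 and 3 rose and 4 fell in siSCR. The heparan sulfate proteoglycan gene Gpc4 was lower by -0.81 ± 0.062 in siPRMT1 and -0.60 ± 0.062 in siSCR. Of 14 Ras and ERK cascade genes with a usable set, 2 rose and 1 fell in siPRMT1 and 2 rose and 4 fell in siSCR, and the scaffold gene Ksr1 rose in both (0.62 ± 0.075 and 0.55 ± 0.075). In the same comparisons the 12 pluripotency genes were 1 higher and 5 lower in each line, and the 15 fibroblast and feeder markers 1 higher and 4 lower in siPRMT1 and 0 higher and 3 lower in siSCR. Their part in the results was not tested.

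Over the 2 lines, 5 of the 9 genes differed in their ATRA response, all more negative in siPRMT1 (Fgf4, Fgf8, Fgf15, Dusp4 and Etv4), where 3.24% of all genes were called, 1.92% higher and 1.32% lower. Fgf5, a ligand of the primed epiblast, did so too, by -1.33 ± 0.155 (adjusted p = 3.7e-05), with a fall of 1.60 ± 0.11 in siPRMT1. This test sets a response within the 6 arrays that stood apart against one among the 18. Prmt1 itself fell with ATRA in siPRMT1 (-0.30 ± 0.061) and was not called in siSCR (0.036 ± 0.061), and its part was not tested. Fitted on the arrays of DMSO and ATRA alone, 1 of the 9 was called, Fgf15, beside 135 of all genes against 646 in the fit of all arrays. Fgf15 was also called in each of the 12 fits that left out 1 array of these groups. The call of Fgf8 was lost in 10 of the 12. Without siPRMT1 DMSO replicate 2 the calls of Fgf4, Dusp4 and Etv4 were lost as well, without siPRMT1 ATRA replicate 2 those of Fgf4 and Etv4, without siPRMT1 ATRA replicate 1 that of Fgf4 and without siPRMT1 DMSO replicate 3 that of Dusp4. Fitted on the 6 siSCR arrays of DMSO and ATRA alone, 2 of the 7 siSCR calls remained, Spry2 and Spry4, beside 544 of all genes against 4663. In the fit of all arrays the rise of Fgf8 was lost without siSCR DMSO replicate 2 or 3 or siSCR ATRA replicate 2. For the difference between the lines, the call of Dusp4 was lost under quantile normalization, median centring, or centring and scaling. Median centring also ended that of Etv4.

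In undifferentiated cells the knockdown comparison asked which genes differed between the siPRMT1 and siSCR lines before differentiation. Here 2 of the 9 genes rose and 1 fell, where 18.8% of all genes were called, 7.63% higher and 11.2% lower. Fgf4 was 12.07, 12.02 and 12.04 in siPRMT1 and 11.66, 11.60 and 11.63 in siSCR. The groups lay apart by 0.42 ± 0.077, or 1.33-fold (adjusted p = 0.000557). Fgf15 was 8.47, 8.31 and 8.44 in siPRMT1 and 8.92, 8.86 and 8.79 in siSCR, all siPRMT1 arrays below, by -0.44 ± 0.082 (adjusted p = 0.000542). Etv4 was 10.78, 10.70 and 10.76 in siPRMT1 and 10.47, 10.51 and 10.66 in siSCR, higher by 0.20 ± 0.063 (adjusted p = 0.0267), and that call was lost when either siSCR replicate 1 or 2 or siPRMT1 replicate 1 or 3 was left out.

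The other 6 genes were not called in undifferentiated cells, with changes between -0.069 (Spry2) and 0.14 (Dusp6). The interval was -0.18 to 0.04 for Spry2, -0.09 to 0.18 for Spry4 and -0.01 to 0.28 for Dusp6, so changes of the size seen in Fgf4 lay outside them. Among 19 other FGF ligands 0 rose and 3 fell, among them Fgf2 (-0.50 ± 0.125) and Fgf7 (-0.45 ± 0.123), a ligand known from mesenchymal cells. Of 17 receptors and co-receptors 1 rose, the glypican gene Gpc3 (0.64 ± 0.085), and 3 fell, led by the syndecan gene Sdc2 (-0.79 ± 0.117). Of 19 further feedback and output genes 5 rose and 3 fell. Fos, an immediate early gene that ERK induces, was higher by 1.93 ± 0.113. Dusp1, a phosphatase gene that growth factors and stress induce, was higher by 0.81 ± 0.071 and the cyclin D1 gene Ccnd1 lower by -0.59 ± 0.056. Of 14 cascade genes 1 rose and 2 fell.

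Markers of other cells moved in this comparison. Of 15 fibroblast and feeder markers 0 rose and 11 fell, and their mean level was 8.89 to 8.94 on the siPRMT1 arrays and 9.32 to 9.36 on the siSCR arrays. No detection calls were used, so no marker can be given as absent. With each array's mean over this list as a covariate, 0 of the 9 genes were called, and 429 of all genes against 3747 without it. Standard errors grew in that fit, with Fgf4 then at 0.67 ± 0.25 and Fgf15 at -0.45 ± 0.27. The list mean did not overlap between the lines, so the fit cannot tell it and the knockdown apart, and the lost calls decide nothing.

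**Figure D3:**
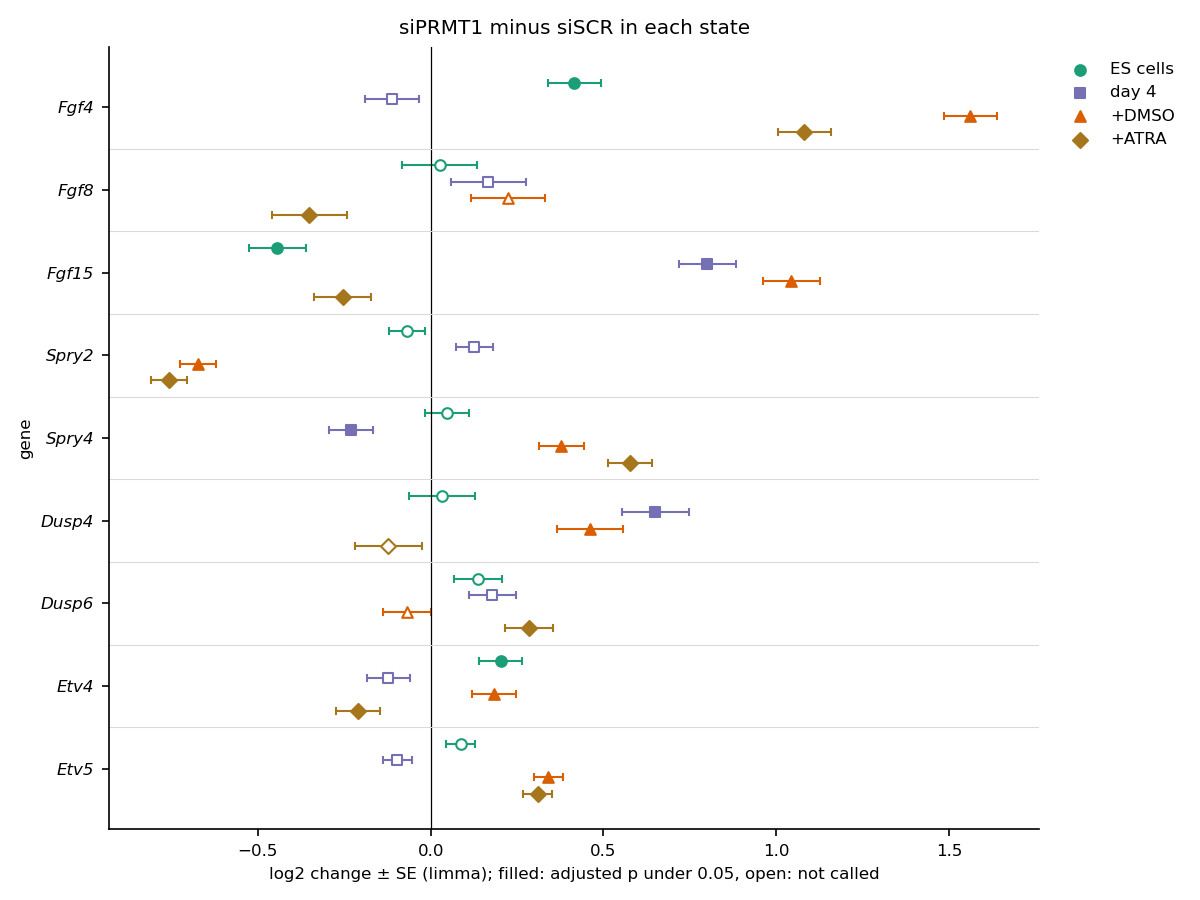
Log2 change ± SE (horizontal axis) of each gene between siPRMT1 and siSCR in undifferentiated cells (circles), day 4 embryoid bodies (squares), with DMSO (triangles) and with ATRA (diamonds). Filled symbols were called; Fgf15 is below 0 in undifferentiated cells (-0.44) and with ATRA (-0.25) and above 0 at day 4 (0.80) and with DMSO (1.04).

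At day 4 the same contrast set the lines side by side during early differentiation. Again 2 of the 9 genes rose and 1 fell, where 18.4% of all genes were called, 11.4% higher and 7.01% lower. Of these only Fgf15 had also been called in undifferentiated cells, with the opposite sign. Fgf15 was 9.39, 9.45 and 9.20 in siPRMT1 and 8.64, 8.56 and 8.43 in siSCR, higher by 0.80 ± 0.082, or 1.74-fold (adjusted p = 6.42e-07). Dusp4 was 9.71, 9.74 and 9.60 in siPRMT1 and 8.98, 9.06 and 9.06 in siSCR, higher by 0.65 ± 0.096, or 1.57-fold (adjusted p = 5.66e-05). For both genes every siPRMT1 array lay above every siSCR array. Spry4 was 12.25, 12.30 and 12.19 in siPRMT1 and 12.45, 12.48 and 12.50 in siSCR, lower by -0.23 ± 0.065 (adjusted p = 0.0157), and that call was lost without siPRMT1 replicate 3, without siSCR replicate 3, or with arrays centred on their medians.

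Fgf4 was not called at day 4 (-0.11, interval -0.28 to 0.05), nor were Fgf8, Spry2, Dusp6, Etv4 and Etv5, whose changes ran from -0.12 (Etv4) to 0.18 (Dusp6). In the rest of the pathway 4 of 19 other ligands rose and 1 fell. Fgf5 was higher by 1.37 ± 0.11, Fgf10, a ligand of mesenchyme, by 1.02 ± 0.118, and Fgf3, the neighbour of Fgf4 on chromosome 7, by 0.58 ± 0.074. Of 17 receptors and co-receptors 6 rose and 2 fell. The FLRT adhesion gene Flrt3, a known partner of FGF receptors, was higher by 0.84 ± 0.082, and Klb, the co-receptor through which FGF15 acts in liver, by 0.52 ± 0.104. Of 19 further feedback and output genes 3 rose and 4 fell, with Dusp9 higher (0.41 ± 0.067) and the early response gene Ier3 (-1.06 ± 0.153), Dusp1 (-0.69 ± 0.071) and Fos (-0.51 ± 0.113) lower. The 10 extraembryonic endoderm markers rose together in this comparison, 10 higher and 0 lower, with mean levels of 10.99 to 11.09 on the siPRMT1 arrays and 10.30 to 10.42 on the siSCR arrays. Of the fibroblast and feeder markers 0 were higher and 8 lower. With the feeder mean as a covariate, 423 of all genes were called against 3669 without it, and 1 of the 9, Fgf15, at 0.80 ± 0.19. Dusp4 stood at 0.64 ± 0.23 there, not called. The feeder mean was 7.93 on the siPRMT1 arrays and 8.15 to 8.28 on the siSCR arrays, so that fit cannot tell it and the knockdown apart. The part of the endoderm markers was not tested.

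Embryoid body formation, day 4 against undifferentiated cells, moved the genes to different degrees in the lines. In siPRMT1, 5 of the 9 rose and 1 fell, where 41.4% of all genes were called, 23% higher and 18.4% lower. In siSCR, 2 rose and 1 fell, where 28.2% were called, 14.5% higher and 13.7% lower. Fgf4 and Etv5 rose in both lines, beside 8.85% of all genes. For Fgf4 the rise was 0.20 ± 0.077 in siPRMT1 (adjusted p = 0.0441), a call lost when any of the 6 arrays was left out, and 0.73 ± 0.077 in siSCR (adjusted p = 2.12e-07). Etv5 rose by 0.17 ± 0.042 in siPRMT1 and 0.35 ± 0.042 in siSCR. Fgf15 rose by 0.93 ± 0.082 in siPRMT1 (adjusted p = 1.14e-08) and fell by 0.31 ± 0.082 in siSCR (adjusted p = 0.00634).

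The remaining calls of embryoid body formation were in siPRMT1, where Spry2 rose by 0.26 ± 0.052, Dusp4 by 0.39 ± 0.096, and Etv4 fell by 0.48 ± 0.063. Tested directly, the day 4 step differed between the lines for 6 of the 9 genes, where 23.8% of all genes were called, 15% higher and 8.83% lower. It was more positive in siPRMT1 for Fgf15 (1.25 ± 0.12) and Dusp4 (0.62 ± 0.14). It was more negative in siPRMT1 for Fgf4 (-0.53 ± 0.11), Etv4 (-0.33 ± 0.089), Spry4 (-0.28 ± 0.092) and Etv5 (-0.18 ± 0.059). This step and the knockdown comparisons at its ends use the same arrays. The knockdown of Prmt1 was also less deep at day 4 than in undifferentiated cells, and its part in these differences was not tested. With arrays centred on their medians the calls of Spry4, Etv4 and Etv5 were lost. Leaving out 1 array ended the call of Spry4 in 7 of 12 fits and that of Etv5 in 5 of 12. Other pathway genes moved further: the epiblast ligand gene Fgf5 rose by 2.60 ± 0.11 in siPRMT1 and 1.29 ± 0.11 in siSCR, Flrt3 by 1.80 ± 0.082 and 1.03 ± 0.082, while Fgf7 fell (-1.61 ± 0.123 and -1.84 ± 0.123), as did the early response genes Fos (-4.38 ± 0.113 and -1.94 ± 0.113) and Egr1 (-2.42 ± 0.092 and -2.04 ± 0.092). Fibroblast and feeder markers fell over the same step, 13 of 15 in siPRMT1 and 12 of 15 in siSCR, while 10 of 10 extraembryonic endoderm markers rose in siPRMT1 and 9 rose and 1 fell in siSCR. Of the 12 pluripotency genes 1 rose and 8 fell in siPRMT1, and 5 rose and 2 fell in siSCR. For the difference between the lines, 9 of the endoderm markers were higher and 7 of the pluripotency genes lower. With the feeder mean as a covariate 0 of the 9 genes were called in either line, and 21 of all genes in siPRMT1 and 8 in siSCR. In that fit Fgf15 stood at 0.92 ± 0.61 and Dusp4 at 0.37 ± 0.72 in siPRMT1, and Fgf4 at 1.40 ± 0.63 in siSCR. The feeder mean itself fell over the step without overlap, from 8.89 to 8.94 down to 7.93 in siPRMT1. In siSCR it went from 9.32 to 9.36 down to 8.15 to 8.28. The fit therefore cannot tell these markers and the step apart, and the lost calls decide nothing. The part of the endoderm and pluripotency genes was not tested.

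**Figure D4:**
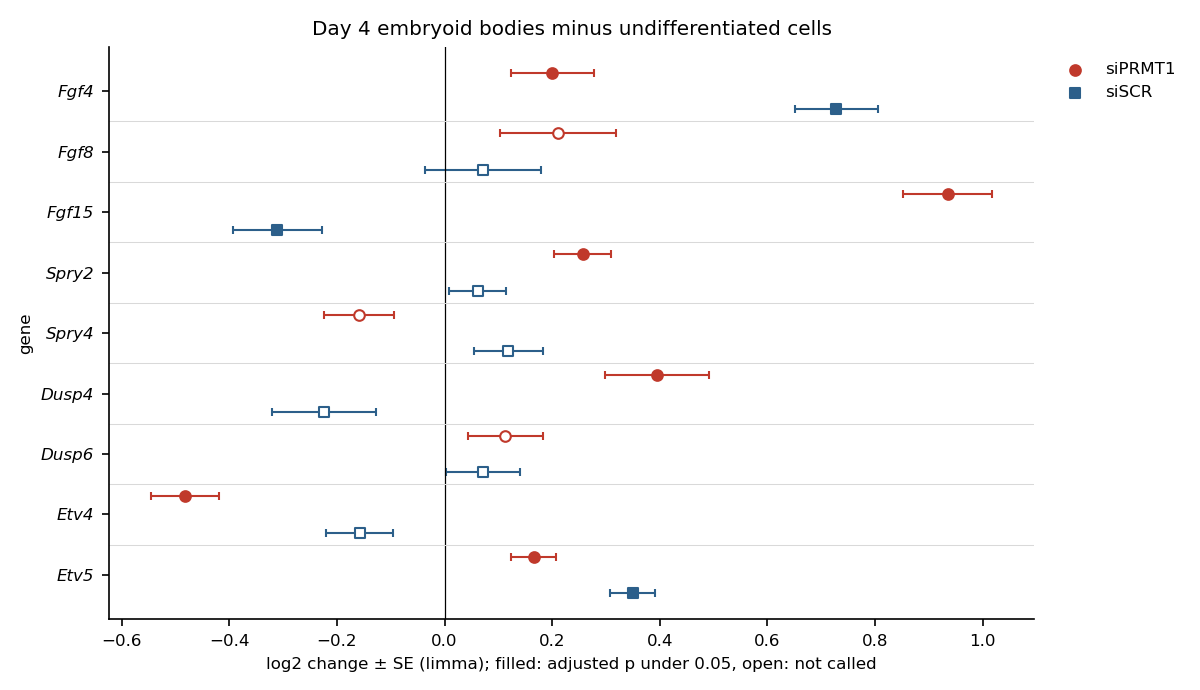
Log2 change ± SE (horizontal axis) of each gene between day 4 embryoid bodies and undifferentiated cells, with siPRMT1 as circles above and siSCR as squares below. Filled symbols were called; Fgf15 lies at 0.93 in siPRMT1 and -0.31 in siSCR, and Fgf4 at 0.20 and 0.73.

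With DMSO or ATRA the knockdown comparison crossed to the arrays that stood apart, and most genes were called there. With DMSO 6 of the 9 rose and 1 fell, where 65.9% of all genes were called, 31.3% higher and 34.6% lower. With ATRA 4 rose and 4 fell, where 70.1% were called, 32.2% higher and 38% lower. Shares of called members near these backgrounds say nothing particular about the 9 genes. Fgf4 had the largest difference, 1.56 ± 0.077 with DMSO (2.95-fold) and 1.08 ± 0.077 with ATRA (2.12-fold). Its 6 siPRMT1 arrays ran from 11.61 to 12.30 and its 6 siSCR arrays from 10.35 to 10.82. Fgf15 was higher with DMSO (1.04 ± 0.082) and lower with ATRA (-0.25 ± 0.082). Spry2 was lower in both (-0.67 ± 0.052 and -0.76 ± 0.052), and Spry4 (0.38 ± 0.065 and 0.58 ± 0.065) and Etv5 (0.34 ± 0.042 and 0.31 ± 0.042) were higher in both. Etv4 was higher with DMSO (0.18 ± 0.063) and lower with ATRA (-0.21 ± 0.063), Dusp4 higher with DMSO (0.46 ± 0.096), Dusp6 higher with ATRA (0.28 ± 0.069) and Fgf8 lower with ATRA (-0.35 ± 0.11). Without siSCR DMSO replicate 1 or siPRMT1 DMSO replicate 2 the DMSO call of Etv4 was lost. Quantile normalization turned the DMSO value of Etv4 to -0.047, not called, and ended the DMSO call of Dusp4 (0.20 ± 0.11) and the ATRA call of Dusp6 (0.098 ± 0.066). Centring on the medians ended the ATRA calls of Fgf8, Fgf15 and Etv4. Markers of other cells differed too. The 10 extraembryonic endoderm markers were all higher with DMSO (median 0.95) and with ATRA (median 1.00), and of the 12 pluripotency genes 3 were higher and 7 lower in each. Their part was not tested. Of the 19 further feedback and output genes 13 rose and 3 fell with DMSO, and 12 rose and 2 fell with ATRA. Among those that rose were Dusp7 (1.95 ± 0.102 and 1.80 ± 0.102) and Etv1 (1.26 ± 0.085 and 1.60 ± 0.085), the remaining gene of the ETV4 and ETV5 subfamily.

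The vehicle step, DMSO against untreated day 4 embryoid bodies, shows the same border from another side. In siPRMT1, where both groups lie among the 18 arrays, 1 of the 9 genes was called, beside 0.461% of all genes. That gene was Fgf15, higher by 0.39 ± 0.082 (adjusted p = 0.0332), and the call was lost whenever any of the 6 arrays was left out. The other 8 genes changed by between -0.069 and 0.10. In siSCR, where the step crosses the border, 3 rose and 4 fell, beside 61.1% of all genes, 30.8% higher and 30.3% lower. There Fgf4 fell by 1.65 ± 0.077 and Spry2 rose by 0.79 ± 0.052, while in siPRMT1 they stood at 0.024 ± 0.077 and -0.0080 ± 0.052.

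Across the 8 groups, Fgf4 ranked highest in siSCR at day 4 (12.36 ± 0.060, SD) and lowest in siSCR with ATRA (10.58 ± 0.24), and the 3 groups at the top, siSCR day 4, siPRMT1 DMSO and siPRMT1 day 4, overlapped from each to the next. Fgf15 ranked highest in siPRMT1 with DMSO (9.74 ± 0.022) and then siPRMT1 at day 4 (9.34 ± 0.13), each clear of the next group, and lowest in siPRMT1 with ATRA (8.22 ± 0.067). Spry2 was highest in siSCR with DMSO (12.69 ± 0.041), clear of the next, and lowest in siPRMT1 with ATRA. Dusp4 was highest in the same groups as Fgf15, siPRMT1 with DMSO and at day 4, which overlapped, and lowest in both lines with ATRA, which overlapped too. Etv4 was highest in undifferentiated cells of siPRMT1 (10.75 ± 0.046) and then of siSCR (10.55 ± 0.099). Dusp6 was the flattest of the 9, with group means spanning 0.28, and only siSCR with DMSO lay clear of the group ranked next below it. Fgf8 spanned 0.47, with siSCR and ATRA (9.00 ± 0.030) clear of the rest and every other neighbour overlapping.

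Some of the 9 followed each other over the arrays. Fgf4 and Etv5 correlated at r = 0.910 over the 24 arrays and 0.957 over the 18, and Fgf15 and Dusp4 at 0.828 and 0.888. Spry4 correlated with Etv5 at 0.843 and with Fgf4 at 0.835 over the 24, but at 0.505 and 0.515 over the 18. These are descriptions over arrays that share groups and lines, with no test. The pairs of like name did not: Etv4 and Etv5 gave 0.024 and -0.211, Dusp4 and Dusp6 0.325 and 0.059. Spry2 and Spry4 gave -0.192 over the 24 arrays and 0.732 over the 18, so their relation turned on the 6 siSCR arrays. Outside the 9, the genes most like each in their 8 group means, among those whose means span at least 1, were Mideas (r = 0.982) and Tmem256 (0.981) for Fgf4, Pim2 (0.905) and Mcc (0.887) for Fgf15, Fabp1 (0.864) and Serpina1c (0.851) for Fgf8. For Spry2 they were Abcg2 (0.946) and Fgf17 (0.942), for Spry4 Btg2 (0.978) and Tmsb4x (0.977), for Dusp4 Dnmt3l (0.851) and Exoc3l (0.828), and for Dusp6 Cemip2 (0.803) and Ctsc (0.765). For Etv4 they were Pttg1 (0.930) and Bmp7 (0.917), and for Etv5 Vangl1 (0.987) and Dapk1 (0.978). These genes were chosen for their r over the 8 means, so those values are the highest of many. Over the 24 arrays every r was lower, with the lowest for Serpina1c (0.515), Ctsc (0.657) and Fabp1 (0.684).

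**Figure D5:**
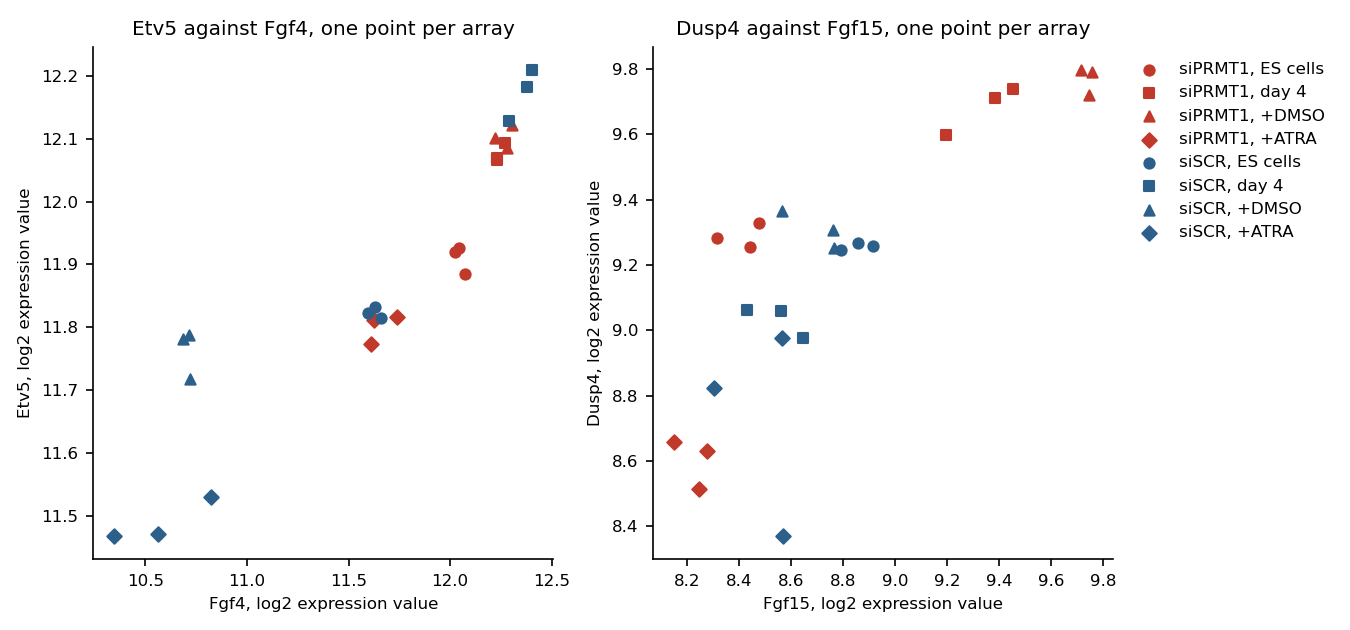
Etv5 against Fgf4 (left) and Dusp4 against Fgf15 (right), log2 expression values, 1 point for each of 24 arrays. Red marks siPRMT1 and blue siSCR, with circles for undifferentiated cells, squares for day 4, triangles for DMSO and diamonds for ATRA; r is 0.910 on the left and 0.828 on the right.

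The second Etv5 probe set, the dimmer one, correlated with the brighter at r = 0.947 over the 24 arrays. It gave the same direction in 11 of 12 comparisons. The exception was the difference in ATRA response, at 0.25 ± 0.084 in the dimmer set and -0.030 ± 0.059 in the brighter, called in neither. Its changes were often larger: 0.67 ± 0.059 for the knockdown with DMSO, 0.91 ± 0.059 with ATRA, and -0.51 ± 0.059 for ATRA in siSCR. In undifferentiated cells it called the knockdown change that the brighter set did not (0.23 ± 0.059, adjusted p = 0.00876), and in siPRMT1 it did not call the rise at day 4 (0.13 ± 0.059).

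Fgf4 lies between Fgf3 and Fgf15 among the protein-coding genes of chromosome 7, with Ccnd1 close by, so these genes were set side by side, a choice made after their values were seen. For the knockdown in undifferentiated cells the log2 changes were 0.11 ± 0.074 for Fgf3 (not called), 0.42 for Fgf4, -0.44 for Fgf15 and -0.59 ± 0.056 for Ccnd1. At day 4 they were 0.58 ± 0.074 for Fgf3, -0.11 for Fgf4 (not called), 0.80 for Fgf15 and -0.20 ± 0.056 for Ccnd1. With ATRA in siPRMT1 all 4 fell, Fgf3 by 0.35 ± 0.074 and Ccnd1 by 0.25 ± 0.056. In siSCR none of the 4 was called with ATRA, with Fgf3 at 0.062 ± 0.074 and Ccnd1 at -0.081 ± 0.056. These 4 genes thus moved in 1 direction with ATRA in siPRMT1, where 5.94% of all genes were called lower, and in different directions with the knockdown. The protein-coding gene next after Fgf15, LTO1, was not among them.

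Promoter windows, 250 bases before to 50 after a start site, were at hand for 4 of the 9 genes (RefSeq, build GRCm38.p6). A window is shown for each of these 4 genes. Fgf4 and Etv5 followed each other over the arrays. Spry2 fell with ATRA in both lines, and Dusp6 had the group means that spanned least. Etv5 had a second window, chr16:22438319-22438618 (minus), which is not printed. Capitals mark the ETS site CCGGAA and the CCAAT box CCAAT, each on either strand. Shorter or variant forms of an ETS site were not searched for or marked. The windows are chr7:144861136-144861435 (plus strand) for Fgf4, chr16:22439521-22439820 (minus) for Etv5, chr14:105896770-105897069 (minus) for Spry2 and chr10:99262981-99263280 (plus) for Dusp6.
Fgf4: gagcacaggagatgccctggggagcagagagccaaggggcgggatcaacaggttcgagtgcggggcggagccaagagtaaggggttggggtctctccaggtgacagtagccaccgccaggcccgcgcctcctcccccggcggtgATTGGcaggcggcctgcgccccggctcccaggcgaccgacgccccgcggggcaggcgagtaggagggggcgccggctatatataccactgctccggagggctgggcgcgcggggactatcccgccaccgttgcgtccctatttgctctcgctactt
Etv5: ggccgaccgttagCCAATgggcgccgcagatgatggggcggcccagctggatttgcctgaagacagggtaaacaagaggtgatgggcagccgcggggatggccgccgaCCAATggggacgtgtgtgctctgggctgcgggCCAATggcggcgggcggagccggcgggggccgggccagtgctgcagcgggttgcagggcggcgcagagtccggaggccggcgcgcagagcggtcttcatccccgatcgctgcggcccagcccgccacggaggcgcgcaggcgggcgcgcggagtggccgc
Spry2: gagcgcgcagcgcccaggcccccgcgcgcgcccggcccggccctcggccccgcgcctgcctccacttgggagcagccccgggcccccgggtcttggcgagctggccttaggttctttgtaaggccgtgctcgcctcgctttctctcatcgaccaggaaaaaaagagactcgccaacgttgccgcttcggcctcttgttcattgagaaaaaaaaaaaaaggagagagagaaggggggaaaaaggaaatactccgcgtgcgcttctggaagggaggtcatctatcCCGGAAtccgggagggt
Dusp6: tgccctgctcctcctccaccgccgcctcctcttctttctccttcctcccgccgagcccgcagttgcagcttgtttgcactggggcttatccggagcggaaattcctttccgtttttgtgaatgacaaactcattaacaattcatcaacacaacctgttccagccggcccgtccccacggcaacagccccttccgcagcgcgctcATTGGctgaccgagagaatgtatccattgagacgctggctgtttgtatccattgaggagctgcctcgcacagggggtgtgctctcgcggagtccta
The full ETS string CCGGAA occurred in 1 of the 5 windows, that of Spry2, starting 33 bases after the start site. It occurred in 14.9% of all 32851 promoter windows. The CCAAT box occurred once in the windows of Fgf4 and Dusp6 and 3 times in that of Etv5, 1 time in the second Etv5 window on the other strand, and in 37.4% of all windows. An AP-1 motif (TGANTCA, 7.81% of windows), an octamer (ATTTGCAT, 1.74%) and the direct repeat bound by retinoic acid receptors (0.00913%), searched on both strands, matched none of the 5. A single AGGTCA, the unit of that repeat, occurred in Spry2 alone, and in 16.3% of all windows. The absence of a match says only that those letters are not in the window.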

How the data were processed

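Total RNA (300 ng, RNeasy) was converted to biotinylated cDNA and hybridised to 24 Affymetrix arrays, per the labels' protocols. The authors deposited 1 table of log2 expression values, with 35556 probe sets. The scale was read from the values (2.14 to 14.5, array medians 7.47 to 7.67). Summarisation and normalization were not given in the sources used here, and a shared normalization of arrays that differ broadly can shift all genes. The number of arrays limits the precision, with a median standard error of 0.0932.

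Probe sets with 1 gene symbol (21789) were kept, and those with several (1621) or none (12146) left out. For genes with more than 1 set (999) the brightest over 24 arrays was used, which left 19938 genes. Group means were fitted with limma 3.58.1 in R 4.3.3 (lmFit, eBayes, 16 residual degrees of freedom), with contrasts for 12 comparisons and Benjamini-Hochberg adjustment over all genes. An exact permutation test of 3 against 3 arrays cannot go below p = 0.1. On simulated data the fit recovered 84.4% of 1.5-fold and 99% of 2-fold changes between groups, and 59% and 92% for differences between responses (5 draws, 200 changed genes of 19938). The simulated noise was normal and independent between arrays, with 1 spread per gene, and only 1 group was changed. On the real arrays the median SD ran from 0.063 to 0.137 by group, so these rates may not hold for them.

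The 9 members, the pathway and marker lists and the tests were chosen with earlier results of these data known. Beyond Prmt1 and the members, the text names some of the called list genes with the largest changes whose groups did not overlap (from the leading 4 of a list and comparison), and for each member the 2 genes with the highest r over the 8 group means among genes spanning at least 1. The alternatives were other scalings, variance settings, array weights, filters, a 2-fold minimum, a feeder marker covariate, a replicate block, fewer arrays and the dimmer Etv5 set. The dimmer set was added after seeing the data. Replicate numbers did not pair the arrays: same-number correlations ran from -0.502 to 0.606, and 23 of 84 were over 0.1.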

Additional observations from a re-analysis of the deposited data

Results flagged for a closer look

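The lines differed by test in 6 of the 9 genes for embryoid body formation (siPRMT1 minus siSCR, log2 scale), where 23.8% of all genes were called. The differences were 1.25 for Fgf15 and 0.62 for Dusp4, and -0.53 for Fgf4, -0.33 for Etv4, -0.28 for Spry4 and -0.18 for Etv5. With arrays centred on their medians the calls of Spry4, Etv4 and Etv5 were lost. For the ATRA response, where 3.24% of all genes were called, the tested differences were -1.30 for Fgf15, -0.58 for Dusp4, -0.57 for Fgf8, -0.48 for Fgf4 and -0.39 for Etv4. Fitted on the arrays of DMSO and ATRA alone, only that of Fgf15 was called.

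In other pairs of states the siPRMT1 arrays all lay above the siSCR arrays in 1 state and all below them in the other. These differences were not tested, and in several of them the change in 1 or both states was not called: Dusp6 in both, and the day 4 changes of Fgf4, Fgf8, Spry2, Etv4 and Etv5. Between DMSO and undifferentiated cells the knockdown change differed by 1.49 for Fgf15 and by -0.21 for Dusp6, and between ATRA and undifferentiated cells by -0.41 for Etv4. Between DMSO and day 4 it differed by 1.67 for Fgf4, -0.80 for Spry2, 0.61 for Spry4, 0.31 for Etv4 and 0.44 for Etv5. Between ATRA and day 4 it differed by 1.19 for Fgf4, -0.52 for Fgf8, -1.06 for Fgf15, -0.88 for Spry2, 0.81 for Spry4 and 0.41 for Etv5. Each of these pairs sets the siSCR arrays that stood apart against the others. The differences therefore cannot be told apart from what separates those arrays. The share of all genes that changed sides in this way is not given. The list is thus a description only and says nothing particular about the genes in it. For the knockdown, 65.9% of all genes were called with DMSO and 70.1% with ATRA.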

How the results depend on the processing

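Of 62 calls over the 9 genes and 12 comparisons, 60 had no change of sign in any of 17 to 25 alternatives. The exceptions were Etv4 for the knockdown with DMSO under quantile normalization (-0.047) and for embryoid body formation in siPRMT1 with the feeder covariate (0.10), and neither value was called. Most alternatives refitted the same values, so signs had little room to change. Calls were lost more often. Fgf15 for the vehicle in siPRMT1 was called in 7 of 18 alternatives and Fgf8 for the difference in ATRA response in 10 of 23. Fgf4 for embryoid bodies in siPRMT1 and Etv4 for the knockdown in undifferentiated cells were each called in 9 of 18. The cause was not tested for the sign changes, these losses or the shifts below, except where fewer arrays entered the fit. A further 2-fold minimum left 0 members (of the 9 genes) for the knockdown in undifferentiated cells and at day 4, 2 with DMSO and 1 with ATRA, 0 for embryoid body formation in either line, 2 and 0 for ATRA in siPRMT1 and siSCR, 0 and 1 for the vehicle in siPRMT1 and siSCR, and 1 each for the differences in day 4 and ATRA response. In the same order it left 76, 92, 1467, 1606, 653, 550, 138, 63, 2, 1202, 343 and 31 of all genes. With the feeder covariate the members called were 0 for the knockdown in undifferentiated cells, 1 at day 4, and 0 for embryoid bodies in each line, with 429, 423, 21 (siPRMT1) and 8 (siSCR) of all genes. In these comparisons the covariate did not overlap between the groups, so the fit cannot tell the markers and the contrast apart. Array weights gave 6 members at day 4, 6 for embryoid bodies in siSCR, 4 for ATRA in siSCR and 2 for the vehicle in siPRMT1. They called 7218 genes for the knockdown in undifferentiated cells and 6106 at day 4, 8969 for embryoid bodies in siSCR, 7640 and 1567 for ATRA in siPRMT1 and siSCR, 2536 for the vehicle in siPRMT1 and 7688 for the difference at day 4. Trend and robust variance gave 6 members at day 4, where the full fit had 3 members and 3669 genes, and 145 genes for the vehicle in siPRMT1. Member counts of an alternative given here without its count of all genes have no background beside them and are descriptions only. Median centring gave 5 members for the knockdown with ATRA, where the full fit had 8 members and 13984 genes. It gave 3 members and 405 genes for the difference in ATRA response, and 0 members and 47 genes for the vehicle in siPRMT1. That last comparison had 0 members under quantile normalization, 0 members and 49 genes with centring and scaling, and 0 members fitted on its arrays alone. With the siSCR arrays under DMSO or ATRA left out, 6 members were called for embryoid bodies in siSCR, where the full fit had 3 members and 5632 genes. For the vehicle in siPRMT1 286 genes were then called. Fitted on the groups compared alone, ATRA in siSCR gave 2 members and 544 genes, and the difference in ATRA response 1 member and 135 genes. Leaving out 1 array gave 0 to 0 members and 29 to 36 genes for the vehicle in siPRMT1, where the full fit had 1 and 92, and 1 to 5 members and 304 to 897 genes for the difference in ATRA response, where it had 5 and 646.

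Replicate numbers did not pair the arrays. With the number as a block, the difference in ATRA response kept 4 members and 588 genes, with Fgf8 lost (adjusted p = 0.0576), and the block changed no other call of the 9 genes. Median centring shifted the median of all genes by 0.107 for the knockdown with DMSO, 0.132 with ATRA and 0.116 for embryoid bodies in siPRMT1. The share of calls that were higher became 82.9% against 61.9% for the knockdown at day 4, 59.7% against 47.5% with DMSO and 59.8% against 45.9% with ATRA. It became 75.0% against 55.5% for embryoid bodies in siPRMT1, 32.8% against 47.8% for ATRA in siSCR, 87.2% against 66.3% for the vehicle in siPRMT1 and 78.0% against 63.0% for the difference at day 4. No detection calls were used, so signal over background was not assessed, and none of the 9 genes was in the dimmest 25% of genes.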
